A study of Homo sapiens with 4 samples.

Results

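Expression of the nuclear pore complex and the nuclear lamina was followed in Ca9-22 cells, an established gingival squamous carcinoma line, with and without KPNA4 knockdown. The genes examined were 35, of which 28 encode nucleoporins and 7 encode lamins or proteins of the inner nuclear membrane and its chromatin tether. They were chosen by name, not by their values, and were found through the transcript accession that the array gives each probe. Of the 34127 gene probes on the array, 49 belonged to these genes. Probes that neither group showed well above background on both its arrays were left out, which kept 48 of the 49 and all 35 genes among the 19550 genes tested.

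The nuclear pore complex is a large channel through the nuclear envelope, built in rings. A Y-shaped complex coats both faces, an inner ring and a membrane ring hold the channel, and nucleoporins with phenylalanine-glycine repeats fill it and bind passing transport receptors. Filaments on the cytoplasmic face serve mRNA export, and a basket reaches into the nucleus. The lamina beneath the membrane is a meshwork of A-type and B-type lamins, which inner membrane proteins tie to chromatin. KPNA4, also called importin alpha 3, is an adaptor that binds nuclear localization signals of cargo proteins and joins them to importin beta for the passage through this pore.

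Each group held 2 cultures, labeled as biological replicates, and total RNA of each was hybridized to 1 Agilent whole human genome array. Both groups were Ca9-22 cells grown in DMEM with 10% fetal bovine serum. The control cells were a negative control, and the knockdown cells had KPNA4 silenced. RNA was taken 3 days after transfection; the labels name siRNA, whereas the study's methods describe short hairpin RNA, and the sequences used are not analysed here. Nothing in the labels says whether the cells were a pool or a clone. All 4 arrays were on 1 slide.

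The measure throughout was the log2 of the processed signal minus the log2 of that array's 75th percentile, so 0 is the brightness below which 75 of every 100 probes lay. It compares 1 probe between arrays and does not rank different genes. The 75th percentile itself was 1466 and 1381 intensity units in the controls but 1938 and 2096 in the knockdown. Between 70.2% and 71.0% of probes were well above background per array and no gene spot was saturated. The correlation over probes was 0.998 between the arrays of either group and 0.979 at most between groups. Of 10 epithelial markers, all well above background on the 4 arrays, 6 were called higher and 3 lower in the knockdown, with KRT6A, a keratin of activated epithelium, at 6.94 and KRT8, a keratin of simple epithelium, at -0.64. The summed scaled signal of these markers was 207.2 to 212.3 in the controls and 190.4 to 199.0 in the knockdown. Well above background on all 4 arrays were 3 of 6 fibroblast, 3 of 5 leukocyte and 2 of 3 endothelial markers. Their summed signals in controls and knockdown were 0.143 to 0.147 and 0.330 to 0.345 for fibroblast, 4.16 to 4.22 and 5.86 to 6.20 for leukocyte, and 0.0873 to 0.0934 and 0.0622 to 0.0656 for endothelial markers. Such a sum follows its brightest gene, and the markers of a list differed. CD14, the brightest leukocyte marker at 2.05 and 2.03 in the controls, rose by 0.54. PTPRC (-0.55) and CD3E (-1.48) were called lower, and ITGAM gave 0.03. Of the fibroblast markers COL1A1 (1.62), COL1A2 (1.24) and PDGFRB (0.56) were called higher and LUM (-2.58) lower. LUM was well above background on 0 knockdown arrays, PDGFRB on 1 control array and CD3E on 1 knockdown array, so their changes lie near the floor. The part of these shifts in the pore and lamina genes was not tested. In RNA from whole cultures, fewer cells of a type and less RNA per cell cannot be told apart.

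KPNA4 measured 4.02 and 4.03 in the controls and 2.36 and 2.05 in the knockdown. Both knockdown arrays lay far below both controls. The change was -1.82 on the log2 scale (SE 0.12), a change in signal of -71.7%, with an adjusted p of 0.00183 by limma.

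The pore and lamina genes changed modestly and in both directions. NUP205 rose the most, by 52.3% of its control signal, and the signal of LBR, the lamin B receptor, fell by 35.6%, the most of the members. Of the 35 genes, 6 were higher and 10 were lower in the knockdown at an adjusted p under 0.05, and 19 did not pass. As background, 20.3% of all genes tested were called higher and 29.5% lower, against 17.1% and 28.6% of these genes. No member changed 2-fold in either direction, whereas 8.9% of all genes did. The median log2 fold change was -0.05 over the members, with a range from -0.63 to 0.61, and -0.10 over all genes. On the arrays themselves, both knockdown values lay above both controls for 12 members and below them for 16, compared with 31.7% and 48.1% of all genes. Thus the members' shares were near those of the whole array.

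**Figure D1:**
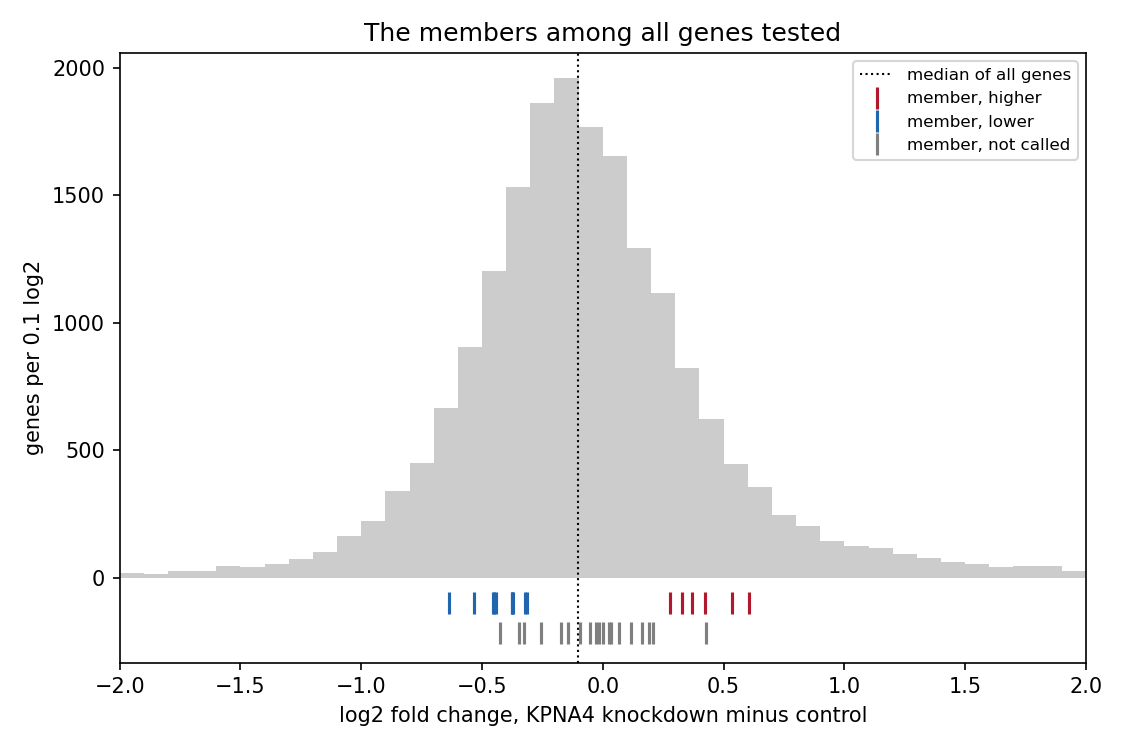
Histogram of the log2 fold change (KPNA4 knockdown minus control) of all 19550 genes tested, in steps of 0.1, with 490 genes beyond 2 in either direction not drawn. Ticks below mark the 35 members in red (6 higher), blue (10 lower) and gray (19 not called), all of which lie between -0.63 and 0.61, and the dotted line is the median of all genes at -0.10.

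These counts rest on few arrays and on the scaling. Without KPNA4 knockdown replicate 1 the counts were 2 higher and 3 lower, and without KPNA4 knockdown replicate 2 they were 1 and 3. Over all genes, 2204 and 3134 of 19543 were called higher and lower without the first of these arrays, and 2150 and 2522 of 19546 without the second. Leaving out control replicate 1 gave 3 and 9 members (18.4% and 24.3% of all genes), and leaving out control replicate 2 gave 6 and 12 (18.3% and 23.8%). NUP205, NUP62 and LBR were called with each of the 4 arrays left out in turn. NUP133, SEC13, NUP85, NDC1, RAE1 and BANF1 were called without either control but not without either knockdown array. The log2 fold change of a called member moved by at most 0.101 in these fits, that of NUP210. Without scaling between the arrays the median of all genes was 0.40, and 21 members were called higher and 0 lower by limma, also 0 at an unadjusted p under 0.05. Over all genes 57.6% were then called higher and 5.4% lower. LBR and NUP62 stayed below 0 even then, at -0.13 and -0.03, and the other 8 members called lower took values from 0.05 to 0.19. Hence each direction below is relative to the 75th percentile of the array. The members' median lay 0.05 above that of all genes. Scaling by the 75th percentile or the median moves all genes of an array alike, so it cannot change this gap. Quantile normalization does not move them alike, and the gap was then 0.057. The gap was 0.0055 with the mean over the probes of a gene and 0.10 with no filter on dim probes. With another background correction, normexp, it was -0.57, in a fit that called 0 genes in either direction. Leaving out 13 spots with high local background on KPNA4 knockdown replicate 2, chosen after seeing the data, gave 0.11.

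**Figure D2:**
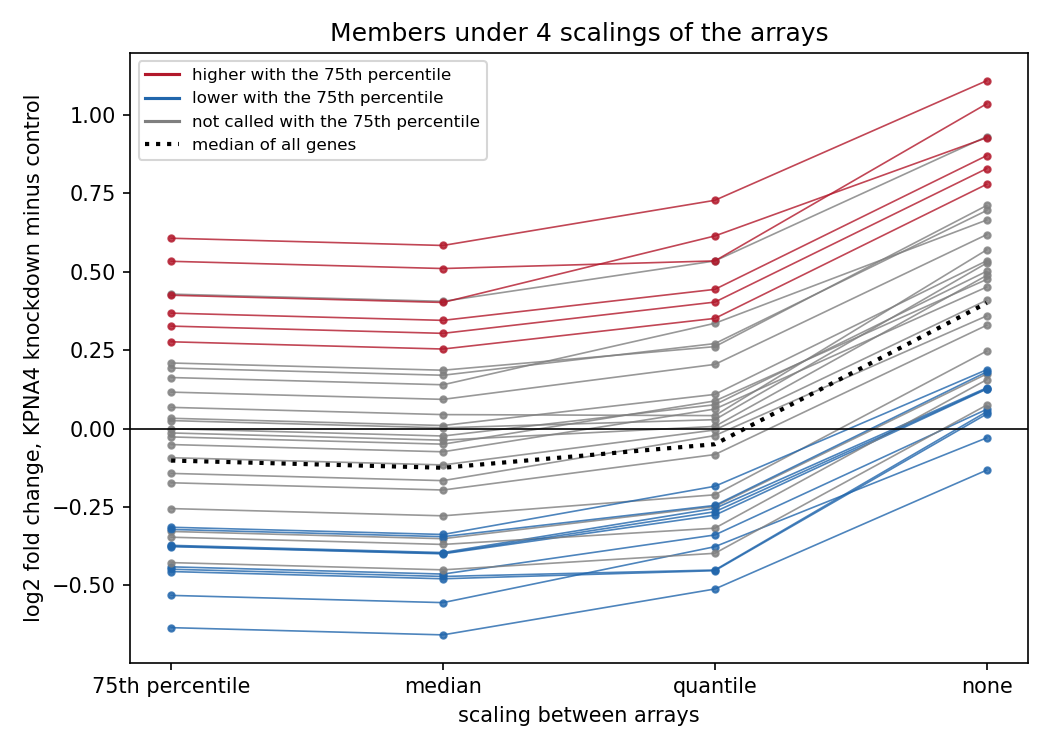
Log2 fold change (KPNA4 knockdown minus control) of each of the 35 members under 4 scalings of the arrays, 1 line per gene. Red and blue lines are the 6 and 10 members called higher and lower with the 75th percentile, gray lines the 19 not called, and the dotted line is the median of all genes. The lines shift up together without scaling, where only the blue lines of LBR and NUP62 stay below 0.

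The sequence upstream of the start site is shown for NUP205 and LBR, because they rose and fell the most, and for SEC13, NUP88 and BANF1, as 3 of the called members with an ETS core, CCGGAA. The windows are RefSeq's on GRCh38.p14, from 250 bases before to 50 after a start, on the strand of the gene. They were found for 33 of the 35 members, all but NUP43 and AHCTF1. The 200 bases before the start are printed from the first listed window, and capitals mark the ETS core (CCGGAA or its reverse complement) and the CCAAT box (CCAAT or its reverse complement).
NUP205, chr7:135557717-135557916, plus strand: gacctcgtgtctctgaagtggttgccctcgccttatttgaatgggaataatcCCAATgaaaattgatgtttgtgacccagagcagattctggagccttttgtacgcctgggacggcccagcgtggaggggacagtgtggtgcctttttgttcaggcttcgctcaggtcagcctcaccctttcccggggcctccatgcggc
LBR, chr1:225428822-225429021, minus strand: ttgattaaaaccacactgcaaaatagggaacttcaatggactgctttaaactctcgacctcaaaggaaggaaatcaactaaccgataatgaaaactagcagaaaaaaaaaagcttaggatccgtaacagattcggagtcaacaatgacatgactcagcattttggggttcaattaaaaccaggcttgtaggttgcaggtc
SEC13, chr3:10321113-10321312, minus strand: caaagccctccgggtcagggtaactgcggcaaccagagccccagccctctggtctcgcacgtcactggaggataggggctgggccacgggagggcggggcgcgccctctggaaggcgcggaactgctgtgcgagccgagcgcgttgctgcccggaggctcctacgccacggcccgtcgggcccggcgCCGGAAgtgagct
NUP88, chr17:5419663-5419862, minus strand: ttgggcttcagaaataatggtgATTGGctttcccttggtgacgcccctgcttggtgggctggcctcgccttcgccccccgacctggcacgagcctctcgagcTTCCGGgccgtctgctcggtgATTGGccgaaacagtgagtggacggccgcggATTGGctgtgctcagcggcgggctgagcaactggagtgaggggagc
BANF1, chr11:66002303-66002502, plus strand: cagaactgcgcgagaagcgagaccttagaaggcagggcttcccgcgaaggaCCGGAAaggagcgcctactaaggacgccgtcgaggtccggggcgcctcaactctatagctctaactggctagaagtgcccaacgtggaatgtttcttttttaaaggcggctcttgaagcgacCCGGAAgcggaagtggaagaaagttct

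Of 7 motifs searched on both strands of the whole window of 300 bases, the ETS core was in 15 of the 33 members (45.5%), compared with 20.1% of the 27305 genes with a window. It was in 2 of the 6 members called higher (NUP133 and SEC13), in 3 of the 9 called lower that had a window (NUP35, NUP88 and BANF1) and in 10 of the 18 not called. The TATA box TATAAA was in 1 member, NUP93 (3.0%, against 14.0% of genes). The YY1 word AAGATGGCG was in 5 (15.2%, against 2.1%). Among them were NUP205, called higher, and NUP88, called lower, and in both the word lies outside the printed stretch. CCAAT was in 42.4% of members and 39.7% of genes, the GC box GGGCGG in 57.6% and 48.3%, the E box CACGTG in 9.1% and 8.8%, and the CHR word TTTGAA in 27.3% and 18.2%. A match describes these letters alone, and some genes have several windows.

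The inner ring gave 3 of the 6 rises, with 1 of its 5 genes called lower, against 20.3% higher and 29.5% lower over all genes. It joins the membrane to the central channel, and NUP93 and NUP205 are part of its scaffold. NUP205 measured 3.40 and 3.54 in the controls and 4.09 and 4.06 in the knockdown. Both knockdown arrays stood above both controls by more than the gap between either pair. The change was 0.61 (SE 0.08, adjusted p = 0.00671). NUP93, which anchors this ring, measured 1.91 and 1.94 in the controls and 2.20 and 2.30 in the knockdown and rose by 0.33 (adjusted p = 0.0209). NUP155, which ties the ring to the membrane, measured 2.38 and 2.35 in the controls and 2.67 and 2.61 in the knockdown and rose by 0.28 (adjusted p = 0.0246). For both genes the knockdown arrays were the higher ones. Neither of these was called with any 1 array left out, although they then stayed at 0.28 to 0.38 and at 0.25 to 0.31. NUP188, a large scaffold protein related to NUP205, gave 0.03 with a 95% confidence interval from -0.29 to 0.34. NUP35, which binds the membrane, measured 2.23 and 2.10 in the controls and 1.84 and 1.85 in the knockdown. Its knockdown arrays were the lower ones. It fell by 0.32 (adjusted p = 0.0273), although its value was 0.18 without scaling. Its second probe gave 0.02 and the mean over both probes was -0.15 (adjusted p = 0.130). Of the fits without 1 array, NUP35 was called only in that without control replicate 2, at -0.39, and it lay between -0.32 and -0.25 in the other three. The median of the 5 genes was 0.28, against -0.10 for all genes.

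**Figure D3:**
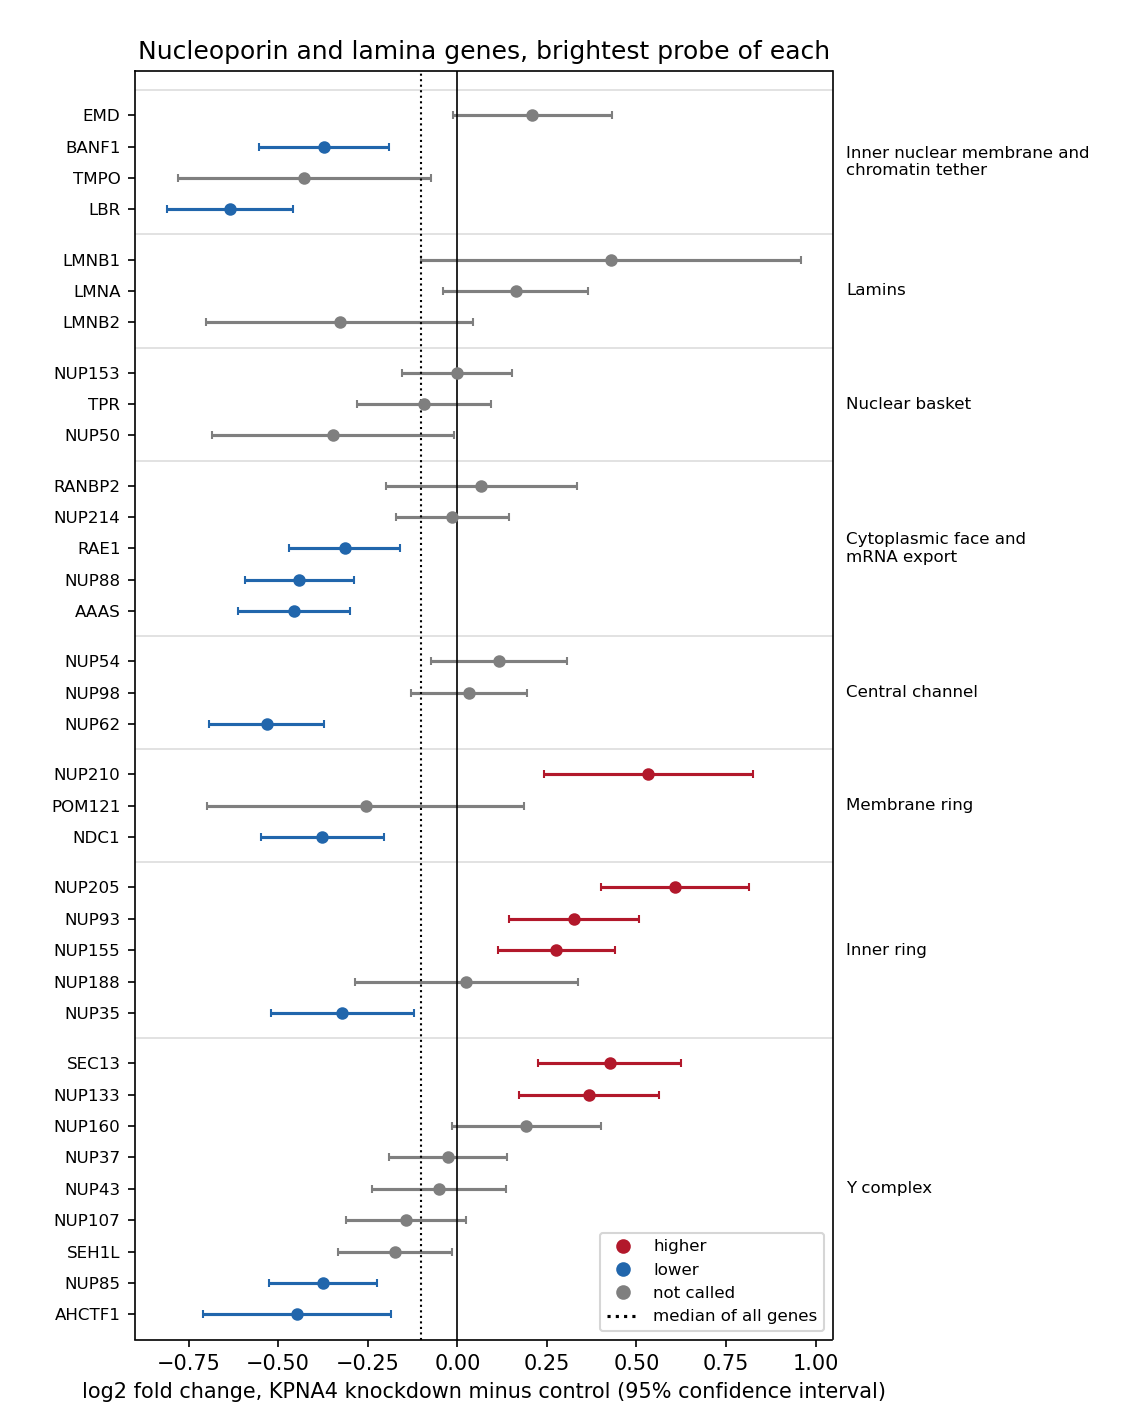
Log2 fold change (KPNA4 knockdown minus control) with its 95% confidence interval for the brightest probe of each of the 35 members, by place in the pore or lamina. Red, blue and gray mark higher, lower and not called, and the dotted line is the median of all genes at -0.10. The inner ring holds 3 of the 6 members called higher, and the cytoplasmic face 3 of the 10 called lower. Over all genes 20.3% were called higher and 29.5% lower.

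The membrane ring was split. NUP210, an integral membrane glycoprotein of the pore, measured -1.14 and -0.94 in the controls and -0.59 and -0.43 in the knockdown. Both knockdown values were the higher ones. It rose by 0.53 (SE 0.11, adjusted p = 0.0202). NDC1, a membrane nucleoporin needed for inserting new pores, measured 2.99 and 3.05 in the controls and 2.62 and 2.67 in the knockdown. Both knockdown values lay below both controls. It fell by 0.38 (SE 0.06, adjusted p = 0.0132), and its value was 0.13 without scaling. POM121, the third, changed by -0.26 (adjusted p = 0.248) and its arrays overlapped. The value was -0.45 without control replicate 1 and -0.06 without control replicate 2. Its probe cannot be told apart here from the near-identical gene POM121C.

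The Y complex, the outer scaffold, held 2 members called higher, 2 called lower and 5 that did not pass. Over all genes 20.3% were called higher and 29.5% lower. SEC13, which also serves in the coat of vesicles leaving the endoplasmic reticulum, measured 4.78 and 4.88 in the controls and 5.30 and 5.21 in the knockdown. The knockdown arrays were both higher. It rose by 0.42 (SE 0.07, adjusted p = 0.0138), and its second probe gave 0.44. NUP133, at the tip of the Y, measured 2.00 and 1.87 in the controls and 2.29 and 2.31 in the knockdown. These groups did not overlap either. It rose by 0.37 (SE 0.07, adjusted p = 0.0185). NUP85, on a short arm of the Y, measured 3.20 and 3.22 in the controls and 2.84 and 2.83 in the knockdown. Both knockdown arrays were low and close together. It fell by 0.37 (SE 0.06, adjusted p = 0.00994). AHCTF1, also called ELYS, brings the Y complex to chromatin after mitosis. It measured -0.07 and -0.26 in the controls and -0.67 and -0.55 in the knockdown. Its knockdown arrays were both lower. It fell by 0.45 (SE 0.10, adjusted p = 0.0236), and of the 4 fits without 1 array it was called only in that without control replicate 2. Without scaling NUP85 and AHCTF1 were at 0.13 and 0.05. The rest lay between -0.17 for SEH1L and 0.19 for NUP160, with NUP107 at -0.14, NUP43 at -0.05 and NUP37 at -0.03. The median of the 9 genes was -0.05.

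In the central channel NUP62, the repeat protein that meets importin beta, measured 4.97 and 4.94 in the controls and 4.45 and 4.40 in the knockdown. The knockdown arrays were both lower and the spread within each group was small. It fell by 0.53 (SE 0.06, adjusted p = 0.00522), a change in signal of -30.8%. The dimmer NUP62 probe gave -0.25 and was not called (adjusted p = 0.0596 by limma in the fit of all probes). With the mean over both probes NUP62 gave -0.39 (adjusted p = 0.0114). NUP54, the partner of NUP62 in the channel, changed by 0.12 (adjusted p = 0.227), and NUP98, whose transcript also encodes the Y complex protein NUP96, by 0.03 (adjusted p = 0.667).

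On the cytoplasmic face 3 of the 5 members fell and 0 rose by limma, also 0 at an unadjusted p under 0.05, with a median of -0.31. Over all genes 29.5% were called lower and the median was -0.10. AAAS, the protein ALADIN, measured -0.15 and -0.13 in the controls and -0.61 and -0.57 in the knockdown. Both knockdown arrays were lower. It fell by 0.46 (SE 0.06, adjusted p = 0.00684). NUP88, which holds NUP214 at the filaments, measured 3.19 and 3.18 in the controls and 2.75 and 2.74 in the knockdown. The arrays of each group were nearly equal, and the groups did not overlap. It fell by 0.44 (SE 0.06, adjusted p = 0.00687). RAE1, an mRNA export factor that binds NUP98, measured 4.52 and 4.49 in the controls and 4.20 and 4.18 in the knockdown. The knockdown arrays were lower and close together. It fell by 0.31 (adjusted p = 0.0155). NUP214, which recruits an mRNA export helicase to the pore, gave -0.01 with an interval from -0.17 to 0.14. RANBP2, the main protein of the filaments, gave 0.07 (adjusted p = 0.592), and its signal cannot be told apart here from that of the related RGPD genes. The 3 genes that fell were at 0.05, 0.06 and 0.19 without scaling.

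In the nuclear basket none of the 3 genes passed the test by limma, against 20.3% called higher and 29.5% lower over all genes. By the same test 1 gene, NUP50, had an unadjusted p under 0.05. TPR, which forms the basket, gave -0.09, NUP153, which anchors it, gave 0.00, and NUP50, which helps importin alpha release its cargo, gave -0.35 (adjusted p = 0.0804). The brightest NUP50 probe measured 1.46 and 1.14 in the controls and 0.94 and 0.97 in the knockdown. Its controls lay apart, and it gave -0.50 and was called without control replicate 2 but gave -0.19 without control replicate 1. The dimmer NUP50 probe, with both controls at 0.36 and the knockdown at 0.05 and 0.07, fell by 0.29 (adjusted p = 0.0190 in the fit of all probes). The second TPR probe was not well above background on any array.

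**Figure D4:**
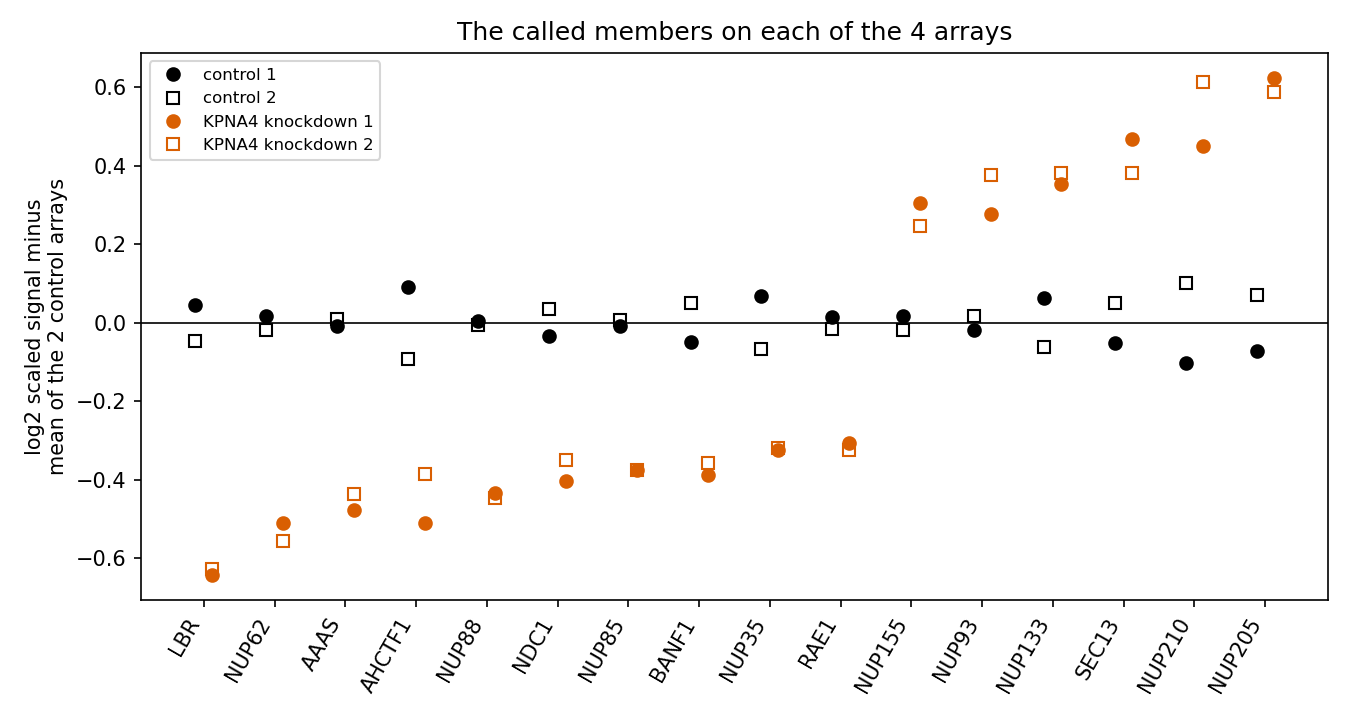
Log2 scaled signal of the 16 called members on each of the 4 arrays, minus the mean of the 2 control arrays of the same gene. Black symbols are controls, orange symbols KPNA4 knockdown, circles replicate 1 and squares replicate 2. For each of the 16 genes the knockdown arrays lie on 1 side of both control arrays, which is likely for any gene chosen as called. Over all genes both knockdown arrays lie above both controls for 31.7% and below them for 48.1%.

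None of the 3 lamin genes was called on its brightest probe by limma, against 20.3% called higher and 29.5% lower over all genes. By the same test 0 lamin genes had an unadjusted p under 0.05. LMNA, which encodes the A-type lamins, measured 4.82 and 4.96 in the controls and 5.05 and 5.06 in the knockdown. The lowest knockdown array exceeded the highest control by less than the gap between the controls. The change was 0.16 (adjusted p = 0.137). LMNB1 measured 2.514 and 3.003 in the controls and 3.286 and 3.089 in the knockdown. The control arrays differed by more than the lowest knockdown array differed from the highest control. The change was 0.43 with a 95% confidence interval from -0.11 to 0.96 (adjusted p = 0.135), and it was 0.18 without control replicate 1 (adjusted p = 0.280) but 0.67 and called without control replicate 2. LMNB2 measured 2.25 and 2.59 in the controls and 2.14 and 2.04 in the knockdown. Its knockdown values were the lower ones, and the controls again lay apart. The change was -0.33 (adjusted p = 0.113), and it was -0.16 without control replicate 2 (adjusted p = 0.197) but -0.50 and called without control replicate 1.

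At the inner nuclear membrane 2 of 4 genes fell and none rose, against 29.5% lower and 20.3% higher over all genes. At an unadjusted p under 0.05 TMPO was lower as well and none was higher. LBR binds B-type lamins and heterochromatin and also acts as a sterol reductase in cholesterol synthesis. It measured 4.08 and 3.99 in the controls and 3.39 and 3.41 in the knockdown. Both knockdown arrays were low and nearly equal. It fell by 0.63 (SE 0.06, adjusted p = 0.00437). BANF1, a small protein that bridges DNA and LEM-domain proteins of the envelope, measured 3.30 and 3.40 in the controls and 2.96 and 2.99 in the knockdown. Its knockdown arrays were lower too. It fell by 0.37 (SE 0.07, adjusted p = 0.0151), and its value was 0.13 without scaling. EMD, emerin, gave 0.21 (adjusted p = 0.0978), and TMPO, the lamina-associated polypeptide 2 gene, gave -0.43 (adjusted p = 0.0549). Without control replicate 2 both were called, at 0.29 and -0.58, and without control replicate 1 neither was, at 0.12 and -0.27. LMNB1, LBR and TMPO are known to be expressed more in dividing cells. Of 18 genes of cycling cells, all well above background on the 4 arrays, 1 was called higher (5.56%) and 8 lower (44.4%), with a median of -0.23, against 20.3%, 29.5% and -0.10 over all genes. Their summed scaled signal was 307.0 to 314.6 in the controls and 267.1 to 272.9 in the knockdown. The part of the cycling genes' shift in the values of LBR, TMPO and LMNB1 was not tested.

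Several genes behaved differently from probe to probe. In the fit of all 24198 probes, 20% of probes were called higher and 28.3% lower. Of the members' 48 probes 7 were higher and 14 lower. For 12 members with more than 1 kept probe, the difference between each other probe and the brightest one was taken within each array and tested between the groups over the 4648 such pairs on the whole array, a test added after the probe values were seen. It was called for 6 of the members' 13 pairs, compared with 24.5% of all pairs. The accession is the one the array's design gives a probe, and other transcripts that a probe may bind were not analysed here.

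The LMNA probe given for NM_170707, the lamin A transcript, measured 3.92 and 3.95 in the controls and 3.48 and 3.40 in the knockdown. These knockdown values were both clearly the lower ones. It fell by 0.49 (adjusted p = 0.00738 in the probe fit). The probes for NM_005572, the lamin C transcript, gave 0.16 and 0.13 and neither was called. The lamin A probe minus the brightest lamin C probe was -0.91 and -1.01 in the controls and -1.57 and -1.66 in the knockdown. The difference was lower on both knockdown arrays, by 0.65 (SE 0.09, adjusted p = 0.0120).

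For TMPO the probe given for NM_003276 measured 1.00 and 0.69 in the controls and 0.36 and 0.48 in the knockdown. The probe given for NM_001032283 measured -0.17 and -0.48 in the controls and -0.08 and -0.11 in the knockdown. The first was lower in both knockdown arrays and the second higher in both. Their difference changed by 0.66 (SE 0.09, adjusted p = 0.0121), while neither probe was called alone. For SEH1L, a Y complex protein shared with a lysosomal nutrient-sensing complex, the probe for NM_001013437 measured 2.17 and 2.08 in the controls and 1.45 and 1.51 in the knockdown. Both knockdown arrays were lower, by 0.65 (adjusted p = 0.00460). The brighter probe for NM_031216 gave -0.17 and was not called, and the difference between the probes changed by -0.48 (adjusted p = 0.0175).

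**Figure D5:**
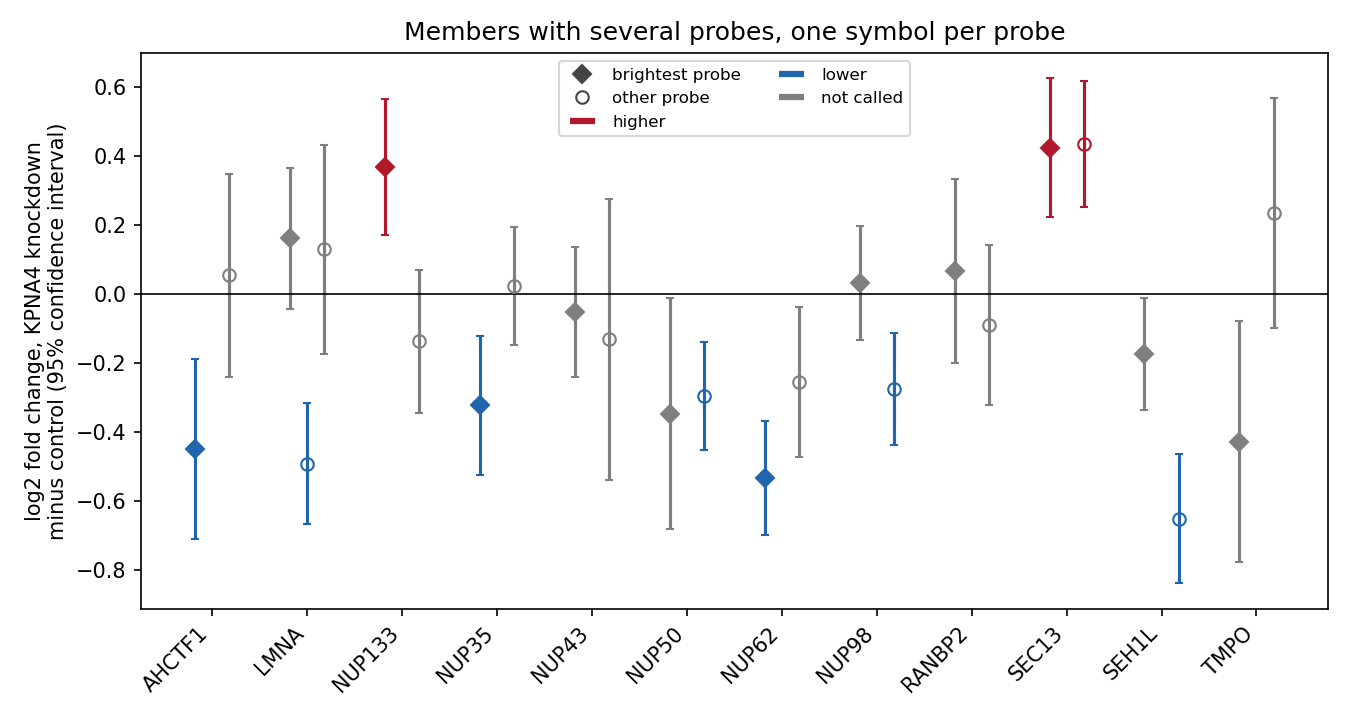
Log2 fold change (KPNA4 knockdown minus control) with its 95% confidence interval for each kept probe of the 12 members that have more than 1. Filled diamonds are the brightest probe of a gene and open circles the others, in red, blue and gray for higher, lower and not called. The probes of 7 genes, AHCTF1, LMNA, NUP133, NUP35, NUP98, RANBP2 and TMPO, fall on both sides of 0, while those of SEC13 are alike at 0.42 and 0.44.

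NUP133, AHCTF1 and NUP35 differed between probes that carry the same accession. The dimmer NUP133 probe measured -2.79 and -2.93 in the controls and -2.98 and -3.02 in the knockdown, a change of -0.14 that was not called. The dimmer AHCTF1 probe measured -3.27 and -3.52 in the controls and -3.30 and -3.37 in the knockdown, a change of 0.05. The dimmer NUP133 probe was thus lower in both knockdown arrays where the brighter one was higher, and the dimmer AHCTF1 probe overlapped between the groups where the brighter one did not. The adjusted p of the difference was 0.0163 for NUP133, 0.0308 for AHCTF1 and 0.0402 for NUP35. With the mean over both probes none of these 3 genes was called, at 0.12 for NUP133, -0.20 for AHCTF1 and -0.15 for NUP35. The other pairs were not called. NUP98 came nearest, with 0.03 for the NM_016320 probe, -0.27 for the NM_005387 probe (adjusted p = 0.0247) and an adjusted p of 0.0606 for their difference. All 6 calls were lost without KPNA4 knockdown replicate 1 and likewise without replicate 2, when 0 pairs of the members passed by limma (6 and 5 pairs at an unadjusted p under 0.05). The 6 differences kept their directions.

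Other genes of the pore and envelope, from a list of 36 that excludes the members, were measured for 33. POM121C and SENP1 had no probe and NUP210L was not well above background. Called higher were 5 (15.2%) and called lower 9 (27.3%), with a median of -0.14, against 20.3%, 29.5% and -0.10 over all genes. TOR1AIP2, a protein that activates torsin, measured -0.41 and -0.59 in the controls and -1.13 and -1.12 in the knockdown. It fell by 0.62 (adjusted p = 0.00791). CBX5, the heterochromatin protein HP1 alpha that binds LBR, fell by 0.47 (adjusted p = 0.00819). ENY2, an mRNA export factor at the basket, fell by 0.38 (adjusted p = 0.00942). LEMD2, a LEM-domain protein of the inner membrane, fell by 0.37 (adjusted p = 0.0172). TMEM43, a membrane protein that binds emerin, rose by 0.38 (adjusted p = 0.0294). The knockdown arrays of each of these 5 genes lay on 1 side of both controls, which is likely for any gene chosen as called. Without scaling between arrays 19 of the 33 were called higher and 0 lower, against 57.6% and 5.4% of all genes. With any array left out, control or knockdown, fewer were called in each direction, and over all genes the shares called fell as well.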

How the data were processed

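Gene expression was measured in 4 Ca9-22 cultures on Agilent 1-color arrays, grouped by their labels. Per the file headers, the authors deposited the output of Agilent Feature Extraction 11.0.1.1, in which the processed intensity is background-subtracted and spatially detrended. The deposited table of the same arrays holds that signal as a ratio to each array's 75th percentile, for 24209 probes, and served as an alternative. Control spots were removed, as were those flagged as non-uniform or population outliers (333 to 355 of 43118 on an array). The log2 signal was averaged over spots of a probe and the 75th percentile subtracted. A gene with several kept probes was represented by the brightest. The deposited median signal and local background intensity were used in an alternative only. Probes were named through RefSeq accessions (25771 matched). Groups were compared in R 4.3.3 with limma 3.58.1, with Benjamini-Hochberg adjustment over all 19550 genes and a threshold of 0.05. The procedure was tested on simulated data. No labels pair the arrays beyond a number. The p-values rest on the spread between 2 cultures per group, which limma moderates with the variance of all genes. Arrays have no read depth, so their number limits the precision.

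Every member was accounted for, and values on all arrays were given for the 12 called members with the largest change, for those with probes at least 0.5 apart or called in opposite directions, for the lamins and for KPNA4. The members and lists were chosen with earlier results of these data known, so counts over them are descriptions. Alternatives covered the scaling, the background correction, the filter, the choice of probe, the flagged spots, the variance model, the replicate block and each array left out. Protein sequences are not analysed here.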

Additional observations from a re-analysis of the deposited data

How the results depend on the processing

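Among 16 alternatives, 9 members kept their direction in each one: LBR, NUP62, LMNB1, NUP205, NUP210, SEC13, NUP133, NUP93 and NUP155. Median scaling, the deposited table, keeping the flagged spots and requiring all 4 arrays above background changed the members' calls by at most 1. With each array left out in turn, members called higher ranged from 1 to 6 and lower from 3 to 12, the members' median from -0.08 to -0.05, member probe pairs called from 0 to 4, other pore and envelope genes higher from 0 to 4 and lower from 1 to 5, and KPNA4 from -1.97 to -1.67.

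Without scaling, 21 members were higher and 0 lower (other list 19 and 0), against 57.6% and 5.4% of all genes. The members' median was 0.45, and 91.5% of called genes were higher rather than 40.8%. Reversed there were LMNB2 0.17, BANF1 0.13, TMPO 0.075, TPR 0.41, NUP50 0.16, NUP153 0.50, AAAS 0.046, RAE1 0.19, NUP88 0.061, NUP214 0.49, NDC1 0.13, NUP35 0.18, AHCTF1 0.054, SEH1L 0.33, NUP37 0.48, NUP43 0.45, NUP85 0.13, NUP107 0.36 and POM121 0.25. Quantile normalization gave 8 higher in the other list, against 22.3% of all genes. It reversed NUP153 (0.076), NUP214 (0.0068), NUP37 (0.088) and NUP43 (0.062). The mean over probes reversed LMNA (-0.067), RANBP2 (-0.011) and NUP98 (-0.12). With each array left out, values crossed 0 for NUP188 (-0.085 to 0.14), NUP153 (-0.014 to 0.012), NUP43 (-0.11 to 0.0052), NUP214 (-0.034 to 0.0058) and RANBP2 (-0.047 to 0.18), none of which was called. In these fits the lone array of a group is assumed to vary like the other group.

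Normexp background correction called 0 members and 0 other genes by limma in either direction (1 member, 0 of the other list and 1149 of all genes at an unadjusted p under 0.05), with a member median of -0.27 and KPNA4 at -1.96 (adjusted p = 0.648). It reversed LMNA (-0.11), NUP160 (-0.011), NUP188 (-0.026), NUP54 (-0.11), NUP98 (-0.12) and EMD (-0.013). KPNA4 knockdown replicate 2 has 13 spots with a local background over 3 times its median, and the other arrays have 0. With those spots left out, chosen after seeing the data, normexp called 8 members higher and 13 lower, including all 16 of the main calls, and 8 other genes higher. Of all genes it called 18.5% higher and 46.8% lower. It put 28.3% of all called genes higher, and NUP37 (0.016), NUP214 (0.0031) and NUP188 (-0.027) were reversed. No filter on dim probes gave 3 members higher and 8 lower, and 2 higher and 4 lower in the other list. Over all genes, 3059 of 27707 were then called higher and 4289 lower, against 3973 and 5766 of 19550 with the filter. The trend and robust variance gave 9 higher in the other list, against 22.2% of all genes.

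The replicate numbers only name the arrays, since deviations of same-numbered arrays correlated at -0.03. With the replicate block 5 members were higher and 8 lower, 13 of the 16 calls were kept, and the other list had 1 higher and 4 lower. Over all genes 16.7% were then called higher and 23.7% lower.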
